A study of Mus musculus with 4 samples.

Results

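Chemokine receptors and chemokines were followed across 4 populations of sorted mouse CD4+ T cells. The 34 genes, 15 receptors and 19 ligands, were chosen by name as a family, and each was read from the probe sets that the platform annotation maps to that gene alone. There were 54 such probe sets, and all 34 genes had at least 1, out of 18193 genes on the array.

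All cells came from spleens and lymph nodes, taken from 25 males aged 5 to 8 weeks of a B6/129 F2 Foxp3-GFP knock-in stock, in which green fluorescent protein (GFP) marks cells that make Foxp3, the transcription factor of regulatory T cells. After depletion of cells bearing DX5, NK1.1, CD11b, B220 or CD8, and a gate against cells that still carried the depleting antibodies, sorting of the CD4+ cells used GFP together with CD25, a chain of the interleukin-2 receptor. It gave CD25hi Foxp3+ and CD25lo Foxp3+ cells, which are regulatory T cells by the sort, and, without Foxp3, CD25+ and CD25- cells, written CD25+ Foxp3- and CD25- Foxp3-. The knock-in allele is shared by all 4, and the labels name no treatment. Each population was hybridised to 1 Affymetrix Mouse Genome array after 2 cycles of amplification, so there are no replicates. Differences are therefore given by size, with no test, and the number of arrays limits their precision.

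Chemokines are small secreted proteins that guide moving cells, and they are named by the spacing of their first cysteines (CC, CXC, CX3C and XC). Their receptors are proteins that span the membrane and signal through inhibitory G proteins. On T cells the set of receptors helps decide where the cell goes: into lymph nodes, into B cell follicles, or into skin, gut or inflamed tissue. Activated T cells also secrete chemokines of their own, which draw in other lymphocytes and myeloid cells.

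Median intensities of the arrays were close, between 15.03 and 15.6. The Foxp3 transcript read 1308 (CD25hi) and 1117 (CD25lo) in the sorted Foxp3+ cells, and 16.8 (CD25+) and 17.6 (CD25-) in the others. All 10 T cell identity genes with a probe set, among them Cd4 and Cd3e, were well measured on all 4 arrays. Low readings were raised to an intensity of 10.1 (the floor), and a gene counted as measured if it reached 32.5 on at least 1 array (the filter), which left 9625 genes. Of the chemokine family 19 of 34 genes were measured, namely 11 of 15 receptors and 8 of 19 ligands. Only 10 of them, 8 receptors and the ligands Ccl5 and Cxcl10, reached the filter on all 4 arrays. The other 9 did so on 1 to 3 arrays, so some difference between arrays is built into their selection. In bulk RNA of a sorted population, fewer cells with a transcript and less transcript per cell cannot be told apart.

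**Figure D1:**
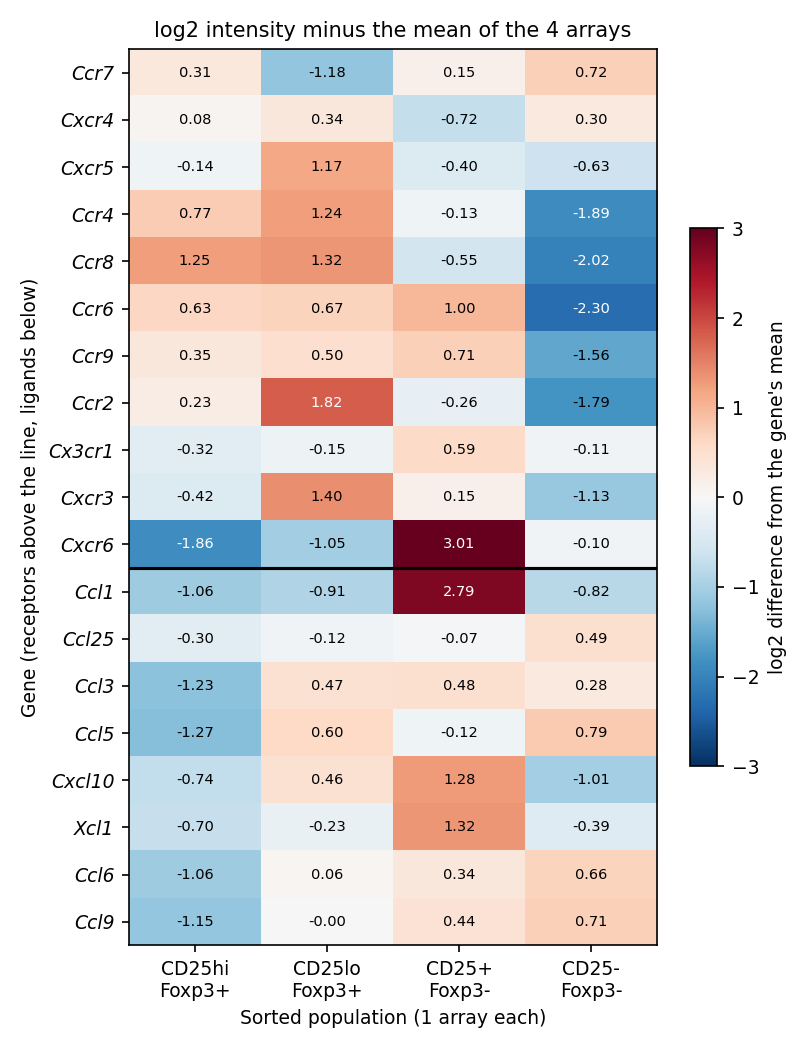
Each cell gives the log2 intensity of a measured gene (rows, 11 receptors above the line and 8 ligands below) in 1 sorted population (columns, 1 array each) minus the gene's mean over the 4 arrays; red is above and blue below that mean. Most receptors are blue in CD25- Foxp3- cells, Ccr7 is blue in CD25lo Foxp3+ cells at -1.18, the ligands are blue in CD25hi Foxp3+ cells, and Cxcr6 and Ccl1 stand out in CD25+ Foxp3- cells at 3.01 and 2.79.

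Receptors and ligands were spread differently over the populations, as the map of centred log2 values shows. None of the 19 measured genes was highest in CD25hi Foxp3+ cells, whereas 17.7% of all measured genes were. CD25lo Foxp3+ cells were highest for 6 genes (21.5% of all measured genes), all of them receptors: Ccr2, Ccr4, Ccr8, Cxcr3, Cxcr4 and Cxcr5. CD25+ Foxp3- cells were highest for 8, which is 42.1% of the members against 30.1% of all measured genes: Ccr6, Ccr9, Cxcr6, Cx3cr1, Ccl1, Ccl3, Cxcl10 and Xcl1. CD25- Foxp3- cells were highest for 5 (Ccr7, Ccl5, Ccl6, Ccl9 and Ccl25), or 26.3% against 30.7%. Several of these leads are small and, with 1 array each, carry no order: Ccr8 read 194 against 185 in the other Foxp3+ array, Cxcr4 read 228 against 222 in CD25- Foxp3- cells, and Ccl3 read 49.8 against 49.5 in CD25lo Foxp3+ cells. Cx3cr1, Ccl1 and Xcl1 passed the filter in CD25+ Foxp3- cells alone, and Ccl9 in CD25- Foxp3- cells alone. Their leads are thus partly built into the selection. CD25hi Foxp3+ cells were lowest for 9 genes, which include 7 of the 8 measured ligands (all but Cxcl10), or 47.4% against 13.3% of all measured genes. Of these, Ccl1 (12.8 against 14.3), Ccl25 (31.1 against 35.4) and Cx3cr1 (24.5 against 27.6) were close to their next lowest value. Only Cxcr6 and Ccl5 of the 9 reached the filter on the CD25hi Foxp3+ array. The rest passed it through other arrays, so a low value there is partly built into the selection. CD25- Foxp3- cells were lowest for 8, of which 7 are receptors, or 42.1% against 28.5%. Among these 8, Ccr4 and Ccr8 did not reach the filter on that array.

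Receptors of lymphoid tissue come first. Ccr7 binds the chemokines that bring naive T cells and dendritic cells into lymph nodes. It read 3715 in CD25hi Foxp3+, 1327 in CD25lo Foxp3+ and 3329 in CD25+ Foxp3- cells, with 4937 for CD25- Foxp3- cells. CD25lo Foxp3+ cells thus stood apart, at 3.72-fold below CD25- Foxp3- and 2.80-fold below CD25hi Foxp3+ cells, and the other populations lay within 1.5-fold of each other. Among the measured members, Ccr7 was the only one that was lowest in CD25lo Foxp3+ cells.

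Cxcr5 takes T and B cells into follicles toward its ligand Cxcl13. Its intensities were 402 in CD25hi Foxp3+, 992 in CD25lo Foxp3+ and 335 in CD25+ Foxp3- cells, with 286 for CD25- Foxp3- cells. CD25lo Foxp3+ cells again stood apart, 2.47-fold above CD25hi Foxp3+ and 3.47-fold above CD25- Foxp3- cells, in the opposite direction to Ccr7. Cxcr4, the receptor for Cxcl12 that acts in homing and retention in bone marrow and lymphoid tissue, varied least among the receptors that reached the filter on all 4 arrays. It read 191, 228, 109 and 222 in the same order of populations. Its lowest value, in CD25+ Foxp3- cells, was 2.04-fold below that of CD25- Foxp3- cells, only just past 2-fold.

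**Figure D2:**
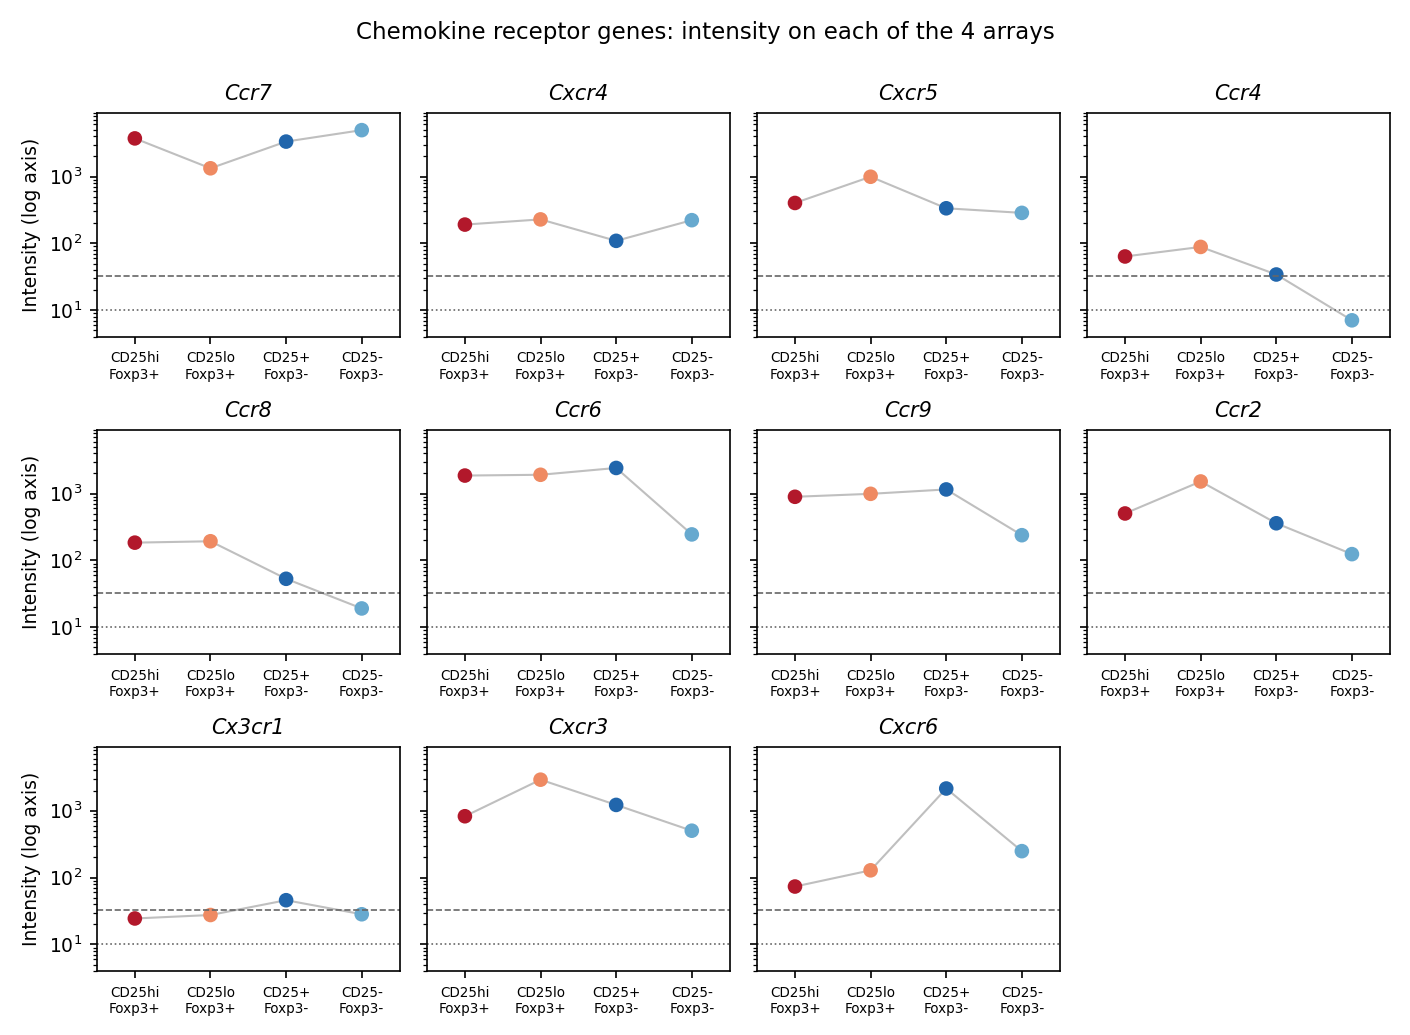
Deposited intensity (log axis) of the 11 measured receptor genes on each array, 1 point per sorted population, with the Foxp3+ populations in reds and the Foxp3- populations in blues; grey lines only join the points of a gene, and the dashed and dotted lines mark the filter at 32.5 and the floor at 10.1. Ccr4 and Ccr8 have both Foxp3+ points on top, Ccr6 and Ccr9 have 3 high points and a low CD25- Foxp3- point, Ccr2, Cxcr3 and Cxcr5 peak in CD25lo Foxp3+ cells, and Cxcr6 peaks in CD25+ Foxp3- cells.

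Of 4 receptors of skin and type 2 responses, Ccr4 and Ccr8 were measured, and both were higher in both Foxp3+ arrays. Ccr8 binds Ccl1 and is known from skin T cells, Th2 cells and regulatory T cells in tissue. Among Foxp3+ cells it read 185 (CD25hi) and 194 (CD25lo), and among Foxp3- cells 53.2 (CD25+) and 19.2 (CD25-). Both Foxp3+ arrays lay above both Foxp3- arrays, with a gap of 3.47-fold between the lower Foxp3+ and the higher Foxp3- value. Ccr4, the receptor for Ccl17 and Ccl22 that guides T cells to skin and to dendritic cells, read 63.7 (CD25hi) and 88.5 (CD25lo) with Foxp3, and 34.3 (CD25+) and 7.07 (CD25-) without it. Its gap was 1.86-fold, and since the CD25- Foxp3- reading is under the floor, CD25hi and CD25lo Foxp3+ cells were at least 6.30-fold and at least 8.75-fold above it. In both genes the CD25+ Foxp3- value lay between the Foxp3+ pair and CD25- Foxp3- cells, at 2.78-fold above the latter for Ccr8 and at least 3.39-fold for Ccr4. With a gap of 1.5-fold or more between the pairs as the rule, 2 of the 19 measured members were higher in both Foxp3+ arrays (2.79% of all measured genes were) and 1 was lower (1.93% of all), which was Cxcr6. Ccr2 came close by the probe set used, with both Foxp3+ arrays above both Foxp3- arrays by 1.40-fold. Another of its probe sets had CD25hi Foxp3+ cells (82.6) below both CD25+ Foxp3- (98.6) and CD25- Foxp3- cells (110).

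The 250 bases before the annotated start of these receptor genes are shown because they are the members that separate the Foxp3+ from the Foxp3- arrays. The sequences are from RefSeq (mouse build GRCm38.p6), which had a start for 27 of the 34 members. Positions are chr9:114496545-114496794 (minus strand) for Ccr4, whose start in that table lies inside the span of the gene, chr9:120091883-120092132 (plus strand) for Ccr8 and chr9:123806227-123806476 (plus strand) for Cxcr6.
Ccr4: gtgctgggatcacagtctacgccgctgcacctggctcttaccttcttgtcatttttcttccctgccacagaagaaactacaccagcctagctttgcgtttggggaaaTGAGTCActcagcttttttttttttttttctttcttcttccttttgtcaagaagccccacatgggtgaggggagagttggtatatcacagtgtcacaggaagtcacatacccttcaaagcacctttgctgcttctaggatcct
Ccr8: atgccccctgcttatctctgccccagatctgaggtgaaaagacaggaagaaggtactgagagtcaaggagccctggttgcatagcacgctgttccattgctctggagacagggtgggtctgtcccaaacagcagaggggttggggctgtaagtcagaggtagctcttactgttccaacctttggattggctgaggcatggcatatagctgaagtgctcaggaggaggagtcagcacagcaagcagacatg
Cxcr6: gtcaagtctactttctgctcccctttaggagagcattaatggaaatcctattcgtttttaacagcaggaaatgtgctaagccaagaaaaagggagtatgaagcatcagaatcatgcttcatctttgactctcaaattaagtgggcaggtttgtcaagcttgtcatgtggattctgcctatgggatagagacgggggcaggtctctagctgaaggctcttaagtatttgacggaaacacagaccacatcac
Capitals mark matches, on either strand, to any of the motifs searched: a forkhead motif (GTAAACA or ATAAACA), a STAT motif (TTCNNNGAA), an AP-1 motif (TGANTCA), in which N is any base, and an NF-kappaB motif. In these 3 windows there was 1 match, an AP-1 motif in Ccr4 that begins at position -143, where -1 is the base before the start. No motif overlapped another there. Of all 32851 RefSeq start windows of this length, 7.1% hold the forkhead, 7.02% the STAT, 6.75% the AP-1 and 1.41% the NF-kappaB motif. Among the 29 windows of members the forkhead motif was found in 2, of Cxcl10 and Cxcr3, and the STAT motif in 2, of Ccl17 and Ccr6. The AP-1 motif was found in 4, of Ccl9, Ccr3, Ccr4 and Cxcl10, and the NF-kappaB motif in 5, of Ccl20, Ccl9, Ccr3, Cxcl1 and Cxcl2. A match describes these letters only.

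Receptors of the gut shared another pattern, low only in CD25- Foxp3- cells. Ccr6, the receptor for Ccl20 found on Th17 cells and on memory and regulatory T cells, read 1862 in CD25hi Foxp3+, 1913 in CD25lo Foxp3+ and 2419 in CD25+ Foxp3- cells, with 245 for CD25- Foxp3- cells. The 3 high values lay within 1.5-fold of each other, and CD25- Foxp3- cells were 7.59-fold to 9.85-fold below them. Ccr9, which takes T cells to the small intestine toward Ccl25, read 896, 993, 1154 and 239 in the same order. It too was low in CD25- Foxp3- cells, by 3.75-fold, 4.16-fold and 4.83-fold against CD25hi Foxp3+, CD25lo Foxp3+ and CD25+ Foxp3- cells. A range as wide as that of Ccr6 over the 4 arrays was seen in 1.82% of measured genes.

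Ccr9 had 5 probe sets, all past the filter, and they did not all give this pattern. The probe set used is of a class (suffix _x_at) that can also bind related transcripts. A pair of others followed it, with 47.1, 62.2, 56.4 and 10.8 for one and 282, 451, 313 and 80.5 for the other in the order given above. The remaining pair were dim and flatter, with 43.1, 52.3, 47.0 and 29.6, and with 35.0, 30.6, 23.0 and 34.9, and the last did not have CD25- Foxp3- cells lowest. With the mean log2 value over all 5, the difference of CD25hi Foxp3+ from CD25- Foxp3- cells was 1.28 in place of 1.91 on the log2 scale, and that of CD25+ Foxp3- cells 1.34 in place of 2.27.

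**Figure D3:**
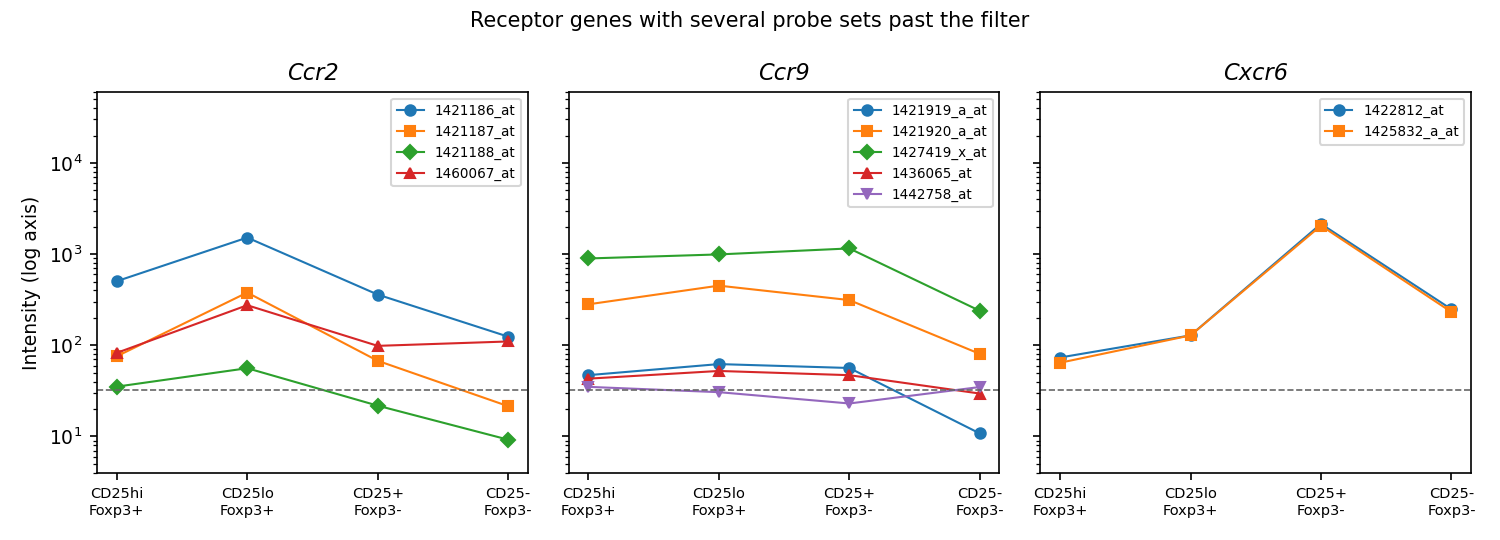
Deposited intensity (log axis) of every probe set of Ccr2, Ccr9 and Cxcr6, the members with several probe sets past the filter (dashed line, 32.5), in the 4 sorted populations; each line is 1 probe set. All 4 Ccr2 probe sets peak in CD25lo Foxp3+ cells and both Cxcr6 probe sets in CD25+ Foxp3- cells, while the Ccr9 probe sets split into 3 that are lowest by a wide margin in CD25- Foxp3- cells and 2 dim ones that are flatter.

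Of the receptors of inflamed tissue and type 1 responses, 4 were measured: Ccr2 and Cxcr3 peaked in CD25lo Foxp3+ cells, and Cxcr6 and Cx3cr1 in CD25+ Foxp3- cells. Ccr2, which binds Ccl2 and is carried by monocytes and memory T cells, read 505 in CD25hi Foxp3+, 1519 in CD25lo Foxp3+ and 360.2 in CD25+ Foxp3- cells, with 124 for CD25- Foxp3- cells. CD25lo Foxp3+ cells were 12.2-fold above CD25- Foxp3- and 3.01-fold above CD25hi Foxp3+ cells. All 4 of its probe sets peaked in CD25lo Foxp3+ cells. One of them, with 82.6, 275, 98.6 and 110 in the same order, did not put CD25- Foxp3- cells lowest, and with the mean log2 value over the 4 probe sets the difference of CD25hi Foxp3+ from CD25- Foxp3- cells was 1.31 in place of 2.02.

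Cxcr3, the receptor of Th1 and memory T cells for the interferon-induced ligands Cxcl9 and Cxcl10, read 826 in CD25hi Foxp3+, 2911 in CD25lo Foxp3+ and 1221 in CD25+ Foxp3- cells, with 502 for CD25- Foxp3- cells. The peak in CD25lo Foxp3+ cells was 3.52-fold above CD25hi Foxp3+ and 5.79-fold above CD25- Foxp3- cells. CD25hi Foxp3+ cells lay within 2-fold of CD25- Foxp3- cells for this gene, at 1.64-fold above.

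Cxcr6 binds the membrane-bound chemokine Cxcl16 and marks effector and tissue-resident T cells, NKT cells and innate lymphoid cells. It was the member with the widest range. It read 73.5 in CD25hi Foxp3+, 128 in CD25lo Foxp3+ and 2148 in CD25+ Foxp3- cells, with 249 for CD25- Foxp3- cells. The CD25+ Foxp3- value was 8.64-fold above CD25- Foxp3- and 29.2-fold above CD25hi Foxp3+ cells, and both Foxp3+ arrays lay below both Foxp3- arrays by at least 1.93-fold. A second probe set gave nearly the same, with 64.4, 128, 2053 and 232. A range of this width was found in 22 of 9625 measured genes (0.229%). Cx3cr1, the fractalkine receptor of monocytes and cytotoxic lymphocytes, passed the filter in CD25+ Foxp3- cells alone, at 45.9 against 24.5, 27.6 and 28.3 in CD25hi Foxp3+, CD25lo Foxp3+ and CD25- Foxp3- cells, all within 2-fold.

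Markers of other lymphocytes followed Cxcr6 only in part. By the 1.5-fold gap, 8 of 10 measured markers of CD8 T and NK cells were lower in both Foxp3+ arrays, against 1.93% of all measured genes. Only 5 of these 10 markers reached the filter on all 4 arrays, so some difference between arrays is built into the selection of the rest. The summed intensity of the 11 with a probe set was 635 and 650.1 with Foxp3 and 2471 (CD25+) and 2263 (CD25-) without it. Among Foxp3- cells Cd8a, Cd8b1, Klrd1 and Prf1 read higher without CD25 (Klrd1 422 against 192), opposite to Cxcr6. Klrk1, Klrc1, Ncr1, Gzmk, Nkg7 and Eomes read higher with CD25 (Eomes 411 against 106). For gamma delta T cells and NKT cells, with 4 markers on the array, the sums were 43.9, 75.4, 193 and 80.5. Zbtb16, the transcription factor of NKT cells and innate lymphoid cells, read 82.2 in CD25+ Foxp3- cells against 4.45, 6.26 and 17.1. Cd163l1 read 21.6, 43.6, 56.5 and 34.8, with CD25lo Foxp3+ above CD25- Foxp3- cells, unlike Cxcr6. Blk, also counted with the B cell markers, was highest in CD25+ Foxp3- cells at 46.3. Sox13 was under the floor on all 4 arrays. None of these 4 markers reached the filter on all 4 arrays. The innate lymphoid cell markers did not share a pattern. Kit read 399 in CD25+ Foxp3- cells and no more than 11.7 elsewhere, whereas Gata3 was higher in both Foxp3+ arrays (760.05 and 966 against 566 and 426) and Cd7 read 772, 486, 969 and 720.2. Their sums of 5118, 4939, 7024 and 7828 were mostly Il7r (3565, 3465, 5075 and 6659), which resting T cells also make, and Arg1 and Il5 did not reach the filter on any array. The sums of mast cells and basophil markers were 52.3, 83.1, 87.8 and 121, with 5 of the latter's 6 genes under the filter. The part of such cells in the Cxcr6 values was not tested.

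**Figure D4:**
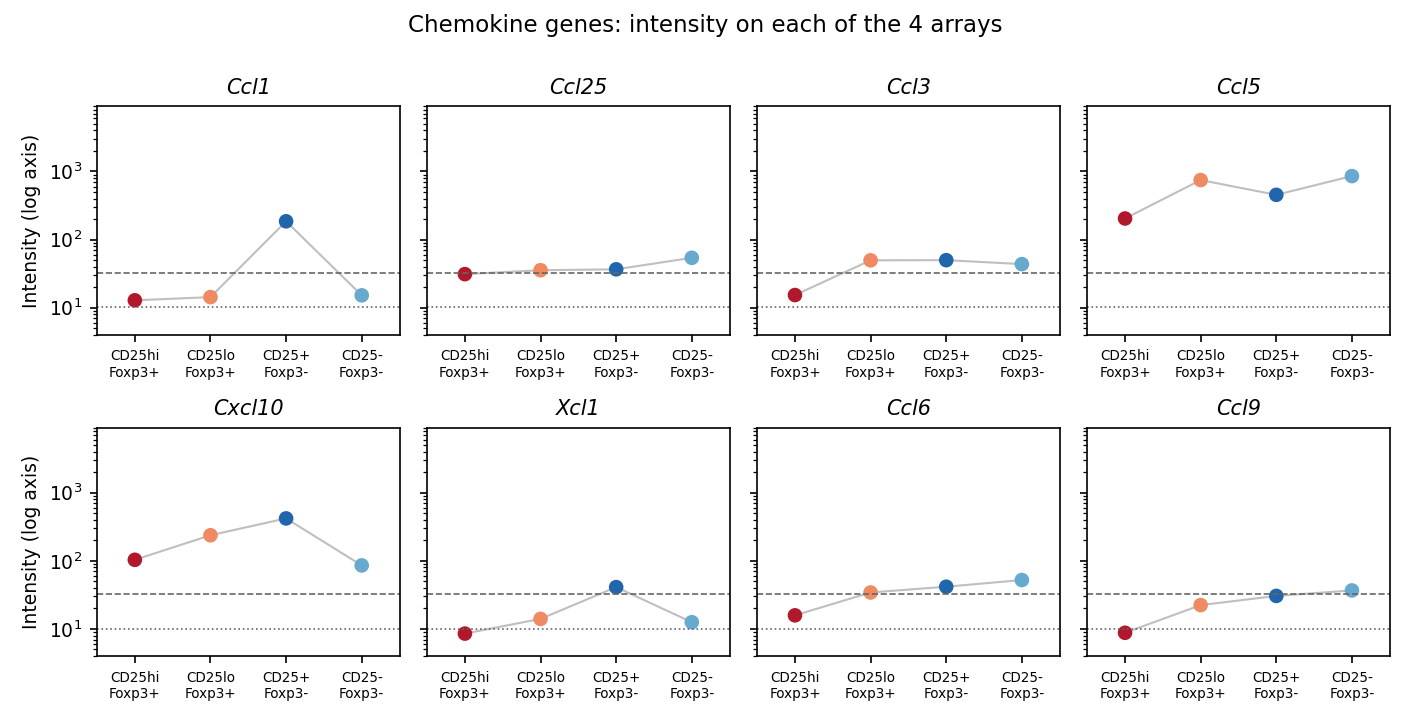
Deposited intensity (log axis) of the 8 measured chemokine genes on each array, 1 point per sorted population in the same colours as the receptors; the dashed and dotted lines mark the filter at 32.5 and the floor at 10.1, and grey lines only join the points of a gene. Ccl1, Xcl1 and Cxcl10 peak in CD25+ Foxp3- cells, and Ccl3, Ccl5, Ccl6 and Ccl9 have their lowest point in CD25hi Foxp3+ cells.

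Among the ligands, Ccl1, Xcl1 and Cxcl10 were highest in CD25+ Foxp3- cells. Ccl1, the ligand of Ccr8 made by activated T cells and mast cells, read 185 there and 12.8, 14.3 and 15.2 in CD25hi Foxp3+, CD25lo Foxp3+ and CD25- Foxp3- cells, all of them near the floor. It was 12.2-fold above CD25- Foxp3- cells, a ratio whose size is uncertain because its lower value is close to background. Receptor and ligand of this pair thus peaked in different populations, Ccr8 in the Foxp3+ pair and Ccl1 in CD25+ Foxp3- cells.

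Xcl1, the ligand of Xcr1 on cross-presenting dendritic cells, is made by NK cells and activated T cells. It read 41.1 in CD25+ Foxp3- cells against 8.55, 14.1 and 12.6 in CD25hi Foxp3+, CD25lo Foxp3+ and CD25- Foxp3- cells. Cxcl10, an interferon-induced ligand of Cxcr3, had a different order. It read 104 in CD25hi Foxp3+, 237 in CD25lo Foxp3+ and 419 in CD25+ Foxp3- cells, with 85.6 for CD25- Foxp3- cells. CD25lo Foxp3+ and CD25+ Foxp3- cells were both above the other pair by at least 2.29-fold. This grouping did not follow Foxp3, and Cxcl10 did not rise or fall steadily with Il2ra, the gene of CD25. The pair with more Cxcl10 had the middle Il2ra readings, 288 and 283, against extremes of 1562 (CD25hi Foxp3+) and 22.3 (CD25- Foxp3-). Whether Cxcl10 depends on the CD25 level was not tested. By a gap of 1.5-fold, 1 of the 19 members was higher in the pair with middle Il2ra (1.6% of all measured genes were) and 0 were lower (1.45% of all).

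A second set of ligands was lowest in CD25hi Foxp3+ cells. Ccl5 (RANTES), which memory and cytotoxic T cells store and secrete, read 204 in CD25hi Foxp3+, 747 in CD25lo Foxp3+ and 453 in CD25+ Foxp3- cells, with 854 for CD25- Foxp3- cells. CD25hi Foxp3+ cells were 4.19-fold below CD25- Foxp3- and 3.67-fold below CD25lo Foxp3+ cells. Within each Foxp3 state the population sorted for more CD25 had less Ccl5. Il2ra, the gene of CD25, read 1562 and 288 in the Foxp3+ and 283 and 22.3 in the Foxp3- populations, so it was level between CD25lo Foxp3+ and CD25+ Foxp3- cells and the gates do not order all 4 arrays by CD25. CD25hi Foxp3+ and CD25+ Foxp3- cells, taken as a pair, were below the other pair by a gap of at least 1.65-fold. By a gap of 1.5-fold 1 of the 19 members was lower in that pair (0.187% of all measured genes, or 18 of 9625, were) and 0 were higher (1.1% of all).

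Ccl3 (MIP-1 alpha), a ligand of Ccr1 from activated T cells and macrophages, read 15.3 in CD25hi Foxp3+ cells and 49.5, 49.8 and 43.6 in CD25lo Foxp3+, CD25+ Foxp3- and then CD25- Foxp3- cells. All but CD25hi Foxp3+ cells were level, and that population was 2.84-fold to 3.25-fold below them. The myeloid chemokine Ccl6 read 15.8, 34.3, 41.7 and 52.3 in the order of populations used above. Ccl9, another ligand of Ccr1 made mainly by myeloid cells, read 8.79, 22.4, 30.5 and 36.8, with the first under the floor. All these values are close to the filter, so their folds are uncertain in size. Ccl25, the ligand of Ccr9 from thymus and small intestine, stayed within 2-fold, with 31.1, 35.4, 36.6 and 53.9.

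In the RefSeq gene order Ccl5, Ccl9, Ccl6, Ccl3 and Ccl4 follow each other on chromosome 11 with 0 other protein-coding genes between them, and the first 4 of these shared the low value in CD25hi Foxp3+ cells. Ccl4, the last, did not pass the filter and read 13.1, 18.5, 18.4 and 9.80 in the same order of populations. Second probe sets of Ccl9 (7.16, 7.53, 7.21 and 6.87) and Ccl6 (9.10, 12.1, 17.6 and 9.97) were under the filter. They did not separate CD25hi Foxp3+ from CD25- Foxp3- cells. Ccl1, Ccl25 and Xcl1, outside this row of genes, were also lowest in CD25hi Foxp3+ cells. The 250 bases before the starts of Ccl9, Ccl6 and Ccl3, the neighbours with a start in the RefSeq table (GRCm38.p6), are shown because the probe sets used for them read low together. They lie at chr11:83578637-83578886 (minus strand) for Ccl9, chr11:83593088-83593337 (minus strand) for Ccl6 and chr11:83649379-83649628 (minus strand) for Ccl3.
Ccl9: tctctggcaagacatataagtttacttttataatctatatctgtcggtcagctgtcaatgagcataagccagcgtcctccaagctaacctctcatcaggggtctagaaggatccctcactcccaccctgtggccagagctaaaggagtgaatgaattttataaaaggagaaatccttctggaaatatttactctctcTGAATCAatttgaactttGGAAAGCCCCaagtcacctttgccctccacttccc
Ccl6: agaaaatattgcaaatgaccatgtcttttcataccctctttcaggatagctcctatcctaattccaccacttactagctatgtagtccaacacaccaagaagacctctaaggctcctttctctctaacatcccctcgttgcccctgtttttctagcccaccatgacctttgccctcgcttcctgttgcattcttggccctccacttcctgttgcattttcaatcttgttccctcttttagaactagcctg
Ccl3: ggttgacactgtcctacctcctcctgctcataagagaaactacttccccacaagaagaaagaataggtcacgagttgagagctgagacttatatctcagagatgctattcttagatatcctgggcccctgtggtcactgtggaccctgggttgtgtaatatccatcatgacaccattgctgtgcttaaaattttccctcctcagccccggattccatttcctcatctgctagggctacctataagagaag
With the same motifs in capitals, Ccl9 held an AP-1 motif that begins at position -53 and an NF-kappaB motif at -35, on the opposite strand, and the other windows held none. The receptor genes on chromosome 9 gave no such shared pattern. There Ccr9 and Cxcr6 have 1 protein-coding gene between them, yet Ccr9 was lowest in CD25- Foxp3- cells and Cxcr6 in CD25hi Foxp3+ cells, and Xcr1, Ccr1 and Ccr3, further along from Cxcr6, were under the filter while Ccr2, next to Ccr3, was high.

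Markers of other cell types were read as well. Of 9 measured markers of myeloid and dendritic cells, 6 read at least 2-fold below CD25- Foxp3- cells in the CD25hi Foxp3+ array. The share of all measured genes was 3.74%. Only 3 of the 9 reached the filter on all 4 arrays, so some difference between arrays is built into the selection of the rest. The summed intensity of the 15 myeloid and dendritic cell markers with a probe set was 297 in CD25hi Foxp3+, 599 in CD25lo Foxp3+ and 919 in CD25+ Foxp3- cells, with 961 for CD25- Foxp3- cells. Csf1r, the growth factor receptor of macrophages, read 57.8, 212, 147 and 305 in that order and Lyz2 (lysozyme) read 27.8, 113, 70.6 and 147. Of the 15 markers 6 did not reach the filter on any array, Itgam, Cd14, Itgax, Siglech, Flt3 and Zbtb46. Fcgr3 was nearly flat at 38.9, 57.0, 50.0 and 54.2, S100a9 was lowest in CD25lo Foxp3+ cells (46.1, 34.3, 82.7 and 144), and Fcer1g read 294 in CD25+ Foxp3- cells against 15.5, 21.9 and 21.5. The 12 B cell markers with a probe set summed to 473, 987, 3618 and 2331, of which the largest part in CD25+ Foxp3- cells came from H2-Eb1 (854), H2-Ab1 (548) and H2-Aa (1877), class II MHC genes that other antigen-presenting cells also make. Of 8 measured B cell markers, 6 read at least 2-fold below CD25- Foxp3- cells in the CD25hi Foxp3+ array, against the same 3.74%. By the 1.5-fold gap 5 were lower in both Foxp3+ arrays, against 1.93% of all measured genes. Only 4 of the 8 reached the filter on all 4 arrays. Ms4a1 read 15.9, 24.7, 66.7 and 145, Ly86 18.8, 27.2, 49.0 and 82.4, and Cd22 14.0, 40.3, 81.4 and 31.6. Cd79b, a chain of the B cell receptor, went another way, with 97.2, 118, 58.4 and 69.2, and Cd79a, Pax5, Fcrla and Ebf1 did not reach the filter. Red cell and platelet markers summed to 95.6, 166, 387 and 663, with Car1 the largest part at 27.1, 94.9, 257 and 416. The platelet markers among them, Pf4, Ppbp, Itga2b and Gp9, did not reach the filter. The part of other cells in the ligand values was not tested.

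**Figure D5:**
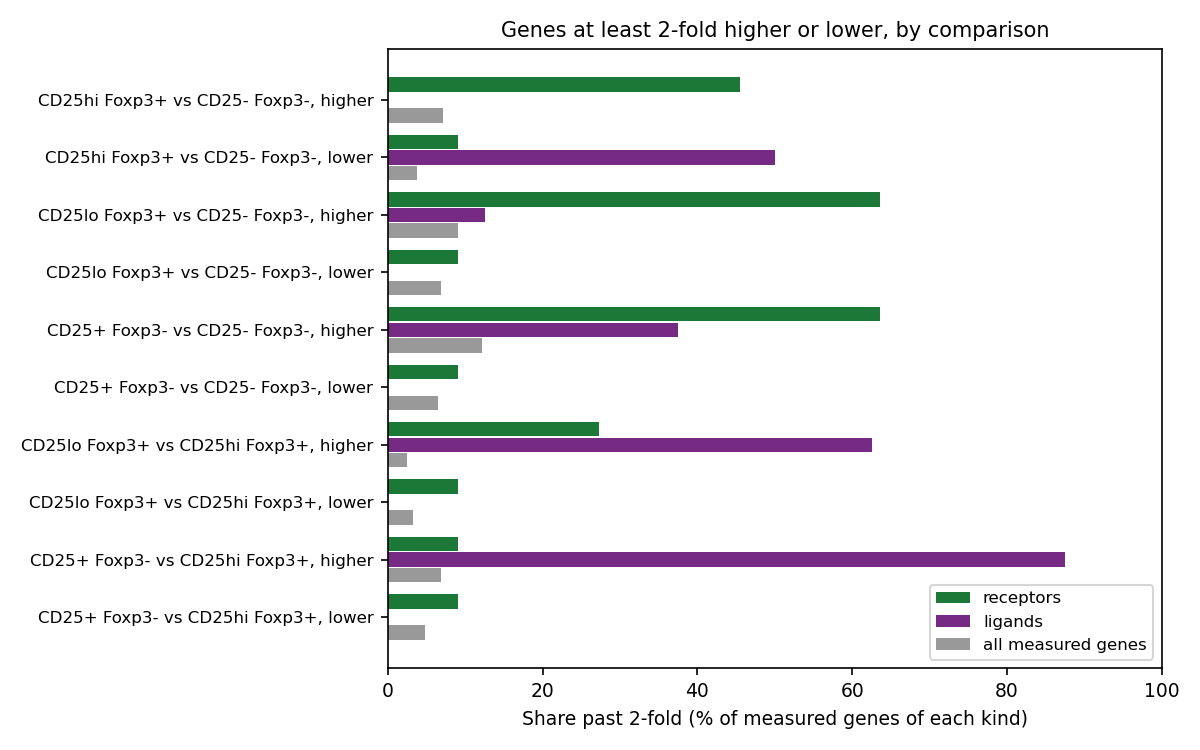
Share of measured receptors (green, of 11), measured ligands (purple, of 8) and all 9625 measured genes (grey) that were at least 2-fold higher or lower in the first population than in the second, for 5 comparisons of 2 arrays. Receptors lead among the genes higher than in CD25- Foxp3- cells, and ligands among the genes higher than in CD25hi Foxp3+ cells (62.5% for CD25lo Foxp3+ and 87.5% for CD25+ Foxp3- cells); genes that pass the filter through 1 high array are included.

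Set side by side, the comparisons with CD25- Foxp3- cells share that array, so their counts are not independent. CD25hi Foxp3+ cells had 5 of the 19 measured members at least 2-fold higher (7.09% of all measured genes were), namely Ccr2, Ccr4, Ccr6, Ccr8 and Ccr9, and 5 at least 2-fold lower (3.74% of all), namely Cxcr6, Ccl3, Ccl5, Ccl6 and Ccl9. CD25lo Foxp3+ cells had 8 higher (9.1% of all), the same 5 receptors with Cxcr3, Cxcr5 and Cxcl10, and only Ccr7 lower (6.88% of all). CD25+ Foxp3- cells had 10 higher (12.1% of all), the 5 receptors with Cxcr3, Cxcr6, Ccl1, Cxcl10 and Xcl1, and only Cxcr4 lower (6.43% of all). Among the 10 members at the filter on all 4 arrays, the higher counts were 3, 6 and 6 in the same order, against 5.01%, 7.06% and 9.3% of the 8495 such genes. The lower counts were 2, 1 and 1, against 2.39%, 5.66% and 5.98%. This stricter rule has a selection of its own, since a low value on 1 array removes a gene. Ccr4 and Ccr8 were left out through CD25- Foxp3- cells alone, and Ccl3 and Ccl6 through CD25hi Foxp3+ cells alone. Over all 34 members without the filter, the median log2 difference was -0.02, 0.00 and 0.06, and over all 18193 genes it was 0 each time. The median was 0.49, 0.58 and 0.70 for the 15 receptors and -0.23, -0.02 and 0 for the 19 ligands.

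Between the Foxp3+ populations, CD25lo had 8 members at least 2-fold above CD25hi cells (2.51% of all measured genes were), namely Ccr2, Cxcr3, Cxcr5, Ccl3, Ccl5, Ccl6, Ccl9 and Cxcl10, and only Ccr7 at least 2-fold below (3.21% of all). Of the 10 members at the filter on all 4 arrays, 5 were above, against 1.68% of such genes, and 1 was below, against 2.52%. CD25+ Foxp3- cells compared with CD25hi Foxp3+ cells had 8 members higher (6.84% of all), Cxcr6 and every measured ligand except Ccl25, and Ccr8 alone lower (4.82% of all). Of the 10 at the filter on all 4 arrays, 3 were higher and 0 lower, against 4.58% and 4.14% of such genes. Ccr6 and Ccr9 were within 2-fold in both of these comparisons.

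Under the filter were 15 members, 4 receptors and 11 ligands. Ccr3, Xcr1, Ccl17 and Cxcl12 read at or below the floor on all 4 arrays. Cxcl12 and Cxcl13 are made by stromal cells and Ccl17 by dendritic cells, and Ccr3 and Xcr1 are receptors of eosinophils and of cross-presenting dendritic cells. Ccr1, a receptor of myeloid cells for Ccl3 and Ccl5, read between 10.9 and 13.9, and Ccr10, a skin-homing receptor, between 6.35 and 15.1.

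The ligands under the filter were flat or faint. Ccl2 read between 7.60 and 13.9, Cxcl9 between 10.4 and 12.1, Cxcl13 between 6.13 and 12.7, Ccl22 between 15.9 and 21.0, Cxcl16 between 16.4 and 20.6 and Cxcl1 between 24.9 and 26.2. A pair came close to the filter on some arrays. Ccl20, the ligand of Ccr6 made by Th17 cells and epithelium, read 28.3 in CD25+ Foxp3- cells against 12.5, 9.28 and 9.82 in CD25hi Foxp3+, CD25lo Foxp3+ and CD25- Foxp3- cells. Cxcl2, a neutrophil chemokine, read 22.5 (CD25hi) and 28.7 (CD25lo) with Foxp3 and under the floor, at 9.15 and 9.53, without it. Among members, matching ligands were under the filter throughout for Ccr2 (Ccl2), Ccr4 (Ccl17 and Ccl22), Ccr6 (Ccl20), Cxcr4 (Cxcl12), Cxcr5 (Cxcl13) and Cxcr6 (Cxcl16). Ccl1, Cxcl10 and Ccl25, ligands of Ccr8, Cxcr3 and Ccr9, passed it in at least 1 population, but Cxcl9, another ligand of Cxcr3, did not.

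Other genes of the pathway were counted from lists. Of 24 further listed genes with a probe set 5 were measured. The list holds other chemokines and receptors and also the chemokine-like factor Cklf with Cmtm6 and Cmtm7. The Cmtm genes are relatives of Cklf and are not chemokines or receptors. By the 1.5-fold gap 2 of the 5, Ccrl2 and Cmtm7, were higher in both Foxp3+ arrays and 0 were lower. The shares of all measured genes were 2.79% and 1.93%. Ccrl2, an atypical receptor that presents chemerin, read 82.6 (CD25hi) and 206 (CD25lo) with Foxp3 and 39.7 (CD25+) and 21.4 (CD25-) without it, and like Ccr2 it peaked in CD25lo Foxp3+ cells. Cx3cl1, the ligand of Cx3cr1, read 53.9 in CD25+ Foxp3- cells and between 7.64 and 12.3 in the others. Cmtm7 read 332 and 456 against 143 and 156.

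Signalling genes downstream of the receptors were measured nearly throughout. Of 36 with a probe set 35 were measured, and 33 reached the filter on all 4 arrays. By the 1.5-fold gap 2 of the 35, Rgs1 and Rhoh, were higher in both Foxp3+ arrays and 0 were lower, against 2.79% and 1.93% of all measured genes. Rgs1, which shortens G protein signals of chemokine receptors, read 3565 (CD25hi) and 2748 (CD25lo) with Foxp3 and 1647 (CD25+) and 739 (CD25-) without it. Rgs16, of the same family, read 386, 619, 397 and 75.2, the pattern of Ccr6 with CD25- Foxp3- cells low, and Rgs18 read 123 in CD25+ Foxp3- cells and under the floor on the other arrays. Pik3r5 was opposite to Rgs16, with CD25- Foxp3- cells high, at 272, 212, 242 and 875 in the same order. Against CD25- Foxp3- cells, 2 of the 35 were at least 2-fold higher and 1 lower in CD25hi Foxp3+ cells, likewise 2 and 1 in CD25lo Foxp3+ cells, and 4 and 3 in CD25+ Foxp3- cells. The shares of all measured genes were 7.09% and 3.74%, 9.1% and 6.88%, and 12.1% and 6.43%, so these counts lay near or under the background.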

How the data were processed

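Gene expression was measured on 4 Affymetrix arrays, 1 for each sorted population, and samples were grouped by their titles. Per the labels' protocols, RNA went through 2 cycles of in vitro amplification. The authors deposited an intensity for each probe set, linear as judged from the values. Their probe summary, background correction and normalization are not given in the sources used here. Columns had medians within 10% and were not rescaled.

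Of 45037 probe sets without controls, 34945 had 1 gene in the platform annotation, and 34741 were matched to RefSeq (GRCm38.p6) by Entrez identifier, which changed no symbol. Values under the 40th percentile (10.1) were set to it, and probe sets under the 60th percentile (32.5) on every array were left out. A gene was read from its probe set with the highest mean log2 intensity. Folds against the floor are lower bounds. With 1 array per group no test was made: sizes of 2-fold between arrays and 1.5-fold between pairs were counted, and the counting was checked on simulated data. Calculations used Python 3.11.15, numpy 2.4.6 and pandas 2.3.3.

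All members are accounted for by name. Of the other pathway genes the text gives counts, the values of the 6 with the widest range, and those of Cmtm7, which passed the 1.5-fold gap. The members and lists were chosen with earlier results of these data known. Alternatives were another floor, no filter, quantile normalization, the mean over the probe sets of a gene that passed the filter, and other sizes.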

Additional observations from a re-analysis of the deposited data

Results flagged for a closer look

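The difference between cells with more and with less CD25 went in opposite directions in the Foxp3+ and in the Foxp3- populations, by at least 2-fold in each, for 3 of the 19 measured members. Ccr2 was lower in CD25hi than in CD25lo Foxp3+ cells by a log2 difference of -1.59 and, among Foxp3- cells, higher with CD25 than without by 1.53, a difference of 3.12 between them. For Cxcr3 the values were -1.82 and 1.28, which lie 3.10 apart. For Cxcl10, a ligand of Cxcr3, they were -1.20 and 2.29, which lie 3.49 apart. Among all 9625 measured genes 131 (1.36%) had such opposite differences, and 88 (0.914%) had them in this direction. With 1 array per population the difference between the Foxp3 states was not tested. The contrasts also span different CD25 levels, with Il2ra at 1562 against 288 among Foxp3+ and 283 against 22.3 among Foxp3- cells. They therefore do not compare the Foxp3 states at the same CD25. For Ccr2, another probe set read 98.6 with and 110 without CD25 among Foxp3- cells, so it did not share the second difference.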

How the results depend on the processing

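With the floor at the 20th percentile, with quantile normalization and with the mean over probe sets, all 12 counts of members past a size kept the same genes. That mean took only probe sets past the filter, so it could change only Ccr2, Ccr9 and Cxcr6. The second probe sets of Ccl6 and Ccl9 did not enter it, so the counts of these genes were not checked against them. Without the filter, the members lower in CD25+ Foxp3- than in CD25hi Foxp3+ cells were 2 in place of 1, since Cxcl2 was added. Cxcl2 or Ccl20 also raised the higher counts of CD25hi Foxp3+, CD25lo Foxp3+ and CD25+ Foxp3- against CD25- Foxp3- cells to 6, 9 and 11, that of CD25+ Foxp3- against CD25hi Foxp3+ cells to 9 and that of both Foxp3+ arrays from 2 to 3. At 3-fold in place of 2-fold, 7 counts stayed within 1.5 times. The others were 0 members lower in CD25+ than in CD25- Foxp3- cells, 4 higher and 0 lower in CD25lo than in CD25hi Foxp3+ cells and, with a gap of 2-fold between pairs, 1 higher and 0 lower in both Foxp3+ arrays. Among the log2 differences of single members, none past its size changed sign, and 4 of 114 moved by 1.5-fold or more with the mean over probe sets, those of Ccr2 and Ccr9 against CD25- Foxp3- cells. No paired analysis was possible because each population has 1 array. Readings near the floor, as for Ccl1, Xcl1, Ccl6 and Ccl9, limit how far the size of their folds can be read.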
